A study of Mus musculus with 104 samples.

Results

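The 30 interferon-stimulated genes described here are a named list, looked up by symbol in a table of RefSeq read counts from mouse cerebral cortex. All 30 were found among the 24060 genes of the table. The series holds 52 mRNA libraries from females and 52 from males, each from the cortex of a wild type C57BL/6 mouse aged 6 months. The design text calls them controls and gives 8 mice per line, and the batch tag of the labels holds 13 names, read here as the lines (Zswim6, Tbc1d8, Rgs9, Rasgef1a, Ppp1ca, Pcdh20, Morf4l1, Kdm3b, Hrk, Gsg1l, Ece2, Dach1 and Arpp19), each with 4 females and 4 males. All carry the wild type genotype, and no treatment, infection or transgene is labelled, so the levels are basal ones. Line and batch cannot be told apart. Libraries are named by line, sex and the replicate number of the title, which runs from 1 to 52 within each sex.

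Interferons are secreted proteins that bind receptors on neighbouring cells and on the cell that made them. Type I interferons activate the kinases Jak1 and Tyk2, and the signal passes to a complex called ISGF3, which holds Stat2 and Irf9. The complex binds the interferon-stimulated response element (ISRE) before its target genes, while interferon gamma works through gamma-activated sites (GAS). Several targets are themselves parts of the circuit: Irf7 drives further interferon, Ifih1, Ddx58 and Dhx58 sense viral RNA, and Usp18 shuts the receptor signal down. In uninfected brain the pathway runs at a low tonic level.

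Sequences before the starts of members were searched for the letters of both elements. RefSeq promoter windows of GRCm38.p6, running from 250 bases before to 50 after a start, were at hand for 21 members. The ISRE core was searched as GAAANNGAAA on both strands, so that TTTCNNTTTC also counts. It stood in the windows of 12 of these 21 members (57.1%), against 3.99% of the 27025 genes with a window of that length (3.44% of 32851 windows). The GAS letters TTCNNNGAA, the same on both strands, stood in the windows of 3 members (14.3%: Oas1a, Bst2 and Ifit2) and in those of 9.55% of all such genes (8.3% of windows). A match describes letters only.

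Stretches of 160 bases are printed for 5 members whose windows hold the ISRE core, chosen to show it, and for Oasl2, whose window does not, from 180 to 21 bases before the RefSeq start, 5′ to 3′ on the gene's strand. Capitals mark ISRE core matches, which overlap in Isg15 and Gbp3. Ifit1 (chr19:34640709-34640868, plus strand) and Ifit3 (chr19:34583349-34583508, plus strand) hold 2 matches each. Isg15 (chr4:156200839-156200998, minus strand) holds 3, Rsad2 (chr12:26456473-26456632, minus strand) holds 1 and Gbp3 (chr3:142559864-142560023, plus strand) holds 2. Oasl2 (chr5:114896754-114896913, plus strand) has no match in its window, nor have Lgals3bp and Trim25.
Ifit1: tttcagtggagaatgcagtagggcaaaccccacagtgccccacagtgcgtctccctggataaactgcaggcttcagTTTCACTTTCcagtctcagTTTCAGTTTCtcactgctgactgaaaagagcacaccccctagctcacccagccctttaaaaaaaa
Ifit3: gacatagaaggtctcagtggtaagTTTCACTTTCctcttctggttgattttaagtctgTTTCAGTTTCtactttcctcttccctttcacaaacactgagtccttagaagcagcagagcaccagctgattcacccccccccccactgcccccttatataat
Isg15: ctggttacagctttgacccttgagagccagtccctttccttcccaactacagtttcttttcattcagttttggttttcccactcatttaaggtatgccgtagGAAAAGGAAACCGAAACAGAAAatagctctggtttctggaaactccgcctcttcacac
Rsad2: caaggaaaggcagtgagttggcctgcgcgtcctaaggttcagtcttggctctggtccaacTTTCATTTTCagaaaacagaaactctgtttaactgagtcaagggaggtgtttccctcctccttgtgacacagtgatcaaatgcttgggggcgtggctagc
Gbp3: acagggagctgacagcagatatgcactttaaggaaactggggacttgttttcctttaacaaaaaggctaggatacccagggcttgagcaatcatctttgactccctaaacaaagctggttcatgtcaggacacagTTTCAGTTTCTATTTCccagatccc
Oasl2: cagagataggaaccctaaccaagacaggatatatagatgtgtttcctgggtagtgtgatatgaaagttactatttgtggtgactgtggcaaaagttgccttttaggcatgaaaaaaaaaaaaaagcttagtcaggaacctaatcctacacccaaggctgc

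Depth, sex labels and tissue were checked over the whole series. RefSeq totals ran from 3389134 to 33489259 reads, with a median of 28381482. Kdm3b female replicate 22 held the lowest total, and the next lowest was 23932277 reads. Y-linked or Xist reads went against the sex label in 3 libraries. Rasgef1a male replicate 40 had 0 Y-linked and 32425 Xist reads, and Rgs9 female replicate 43 had 4479 and 3. Rasgef1a female replicate 39 had 0 and 2, so only its Xist reads went against its label. The 2 most alike libraries differed by 1.96 times the chi-square expected had 1 library been counted again. The 7 neuron markers summed to between 13020 and 14500 CPM (counts-per-million, reads scaled to library size), while the 13 blood leukocyte markers in the table summed to between 4.38 and 7.84 CPM, with Cd3g, Ms4a1, Ly6c2 and Ncr1 at a median of 0 reads.

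The ligands were all but absent and the receptors present. The 12 interferon genes looked up (Ifnb1, 5 Ifna genes, Ifne, Ifnk, Ifnz, Ifng, Ifnl2 and Ifnl3) had a median of 0 reads each, and their sum never passed 0.295 CPM in any library. None of the 12 reached the tests. The 6 receptor genes, among them Ifnar1 and Ifnar2, which bind type I interferon, summed to a median of 128 CPM in females and 126 CPM in males.

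Members spanned more than 3 orders of magnitude in basal level, measured in the deposited FPKM (fragments per kilobase of transcript, scaled to depth, which allows genes of different length to be compared). The median of the 30 members' mean FPKM was 0.997, against 7.10 over 15721 tested genes with an FPKM value. In 15 members the mean lay below 1 FPKM and in 4 it lay above 5 FPKM. Median levels by role were 4.33 FPKM for the 3 signalling and transcription genes, 1.33 for 6 other induced genes, 0.918 for 4 regulators, 0.841 for 4 sensors and 0.781 for 13 effectors.

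**Figure D1:**
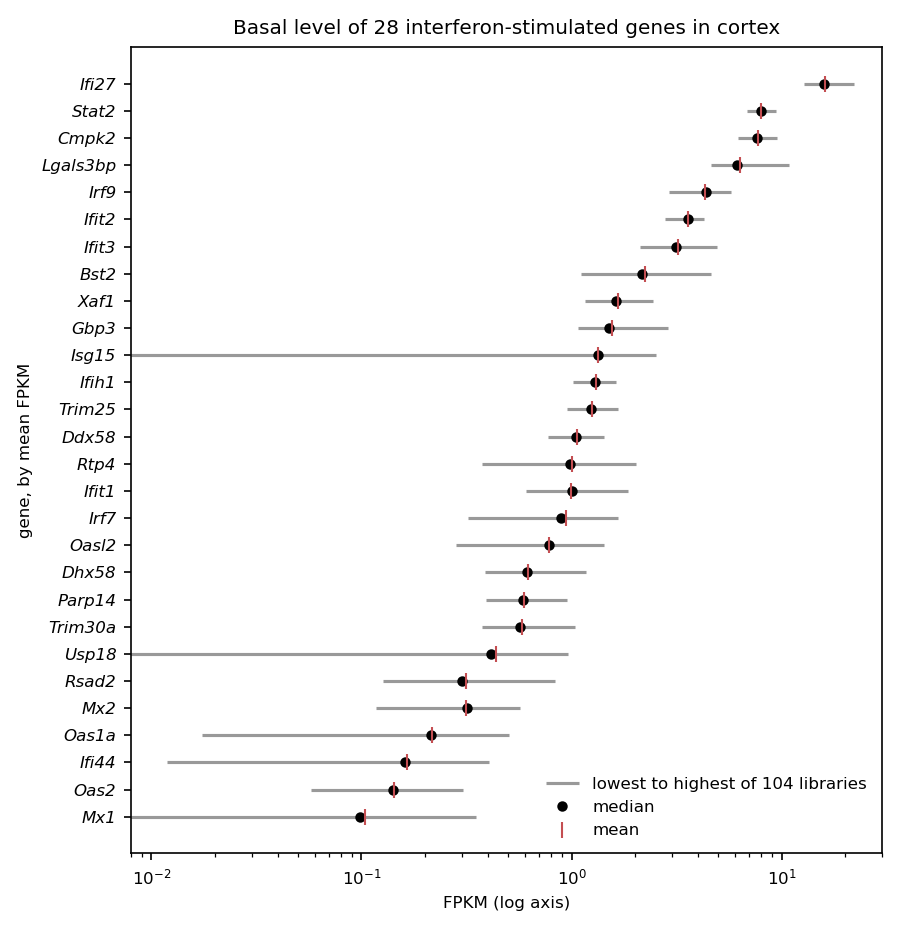
FPKM of the 28 tested members on a log axis, one row per gene ordered by mean; grey lines run from the lowest to the highest of all libraries, black dots are medians and red ticks means. Lines that reach the left edge belong to Isg15, Usp18 and Mx1, whose lowest library is at 0; levels fall from Ifi27 at 16.1 FPKM to Mx1 at 0.104 FPKM.

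Of the signalling genes, Stat2 and Irf9 stood high and Irf7 in the middle of the order. Stat2, a subunit of ISGF3, ranged from 6.83 to 9.41 FPKM with a mean of 8.00 ± 0.530 (SD over all 52 female and 52 male libraries). Irf9, the DNA-binding subunit of the same complex, averaged 4.33 ± 0.571 FPKM. Irf7, an interferon-induced factor that amplifies the response, averaged 0.940 ± 0.235 FPKM.

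Among the RNA sensors, Ifih1 (Mda5) averaged 1.31 ± 0.140 FPKM, Ddx58 (Rig-I) 1.06 ± 0.128 and Dhx58 (Lgp2) 0.624 ± 0.139. Zbp1, a sensor of Z-form nucleic acid, was near the floor at 0.0592 FPKM, with 0 to 14 reads per library and a median of 3, and did not pass the filter on low counts.

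The regulators lay between these. Isg15, a ubiquitin-like protein that is joined to others, averaged 1.34 ± 0.398 FPKM. Trim25, the ubiquitin ligase that activates Rig-I, had 1.26 ± 0.145 FPKM, Trim30a 0.579 ± 0.111 and Usp18, which removes Isg15 and blocks the receptor, 0.436 ± 0.142.

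Effectors filled both ends of the order. Cmpk2, a mitochondrial nucleotide kinase, averaged 7.70 ± 0.582 FPKM, although its neighbour on chromosome 12, the radical SAM enzyme Rsad2 (viperin), averaged 0.316 ± 0.117. The RNA-binding Ifit proteins lay at 3.58 ± 0.311 FPKM (Ifit2), 3.20 ± 0.557 (Ifit3) and 0.989 ± 0.215 (Ifit1). Bst2 (tetherin), which holds virus particles on the cell, averaged 2.24 ± 0.558 FPKM and the GTPase Gbp3 1.55 ± 0.287. Oasl2 averaged 0.781 ± 0.194 FPKM, whereas Oas1a, Oas2 and Oas3 of the oligoadenylate synthetase cluster on chromosome 5 had 0.217, 0.144 and 0.00420 FPKM. Oas3 had 0 reads in 59 libraries and at most 3 in any, and did not pass the filter. The dynamin-like GTPases Mx2 and Mx1 averaged 0.315 and 0.104 FPKM; C57BL/6 mice carry a defective Mx1 gene.

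The highest member of all was Ifi27, a mitochondrial membrane protein, at 16.1 ± 1.65 FPKM, above Stat2 in every library of the series. Lgals3bp, a secreted glycoprotein, averaged 6.32 ± 1.04 FPKM, below Stat2 and Cmpk2. Xaf1, which promotes cell death, had 1.66 ± 0.244 FPKM, the chaperone Rtp4 1.00 ± 0.229, the ADP-ribosyltransferase Parp14 0.596 ± 0.0964 and Ifi44 0.164 ± 0.0651 FPKM. Many neighbours in the order did not differ beyond their spread: Stat2 exceeded Cmpk2 in 78 libraries of the series, Isg15 exceeded Ifih1 in 55, and Rsad2 exceeded Mx2 in 46.

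Ifit3 has a near copy, Ifit3b, which the RefSeq counts do not list. In the Ensembl FPKM, Ifit3 averaged 3.28 ± 0.572 and Ifit3b 1.66 ± 0.283. Reads of such copies, also in the Oas1, Trim30 and Gbp families, may be split or dropped by the counting, so the levels of Ifit3, Oas1a, Trim30a and Gbp3 are uncertain to that degree.

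Between mice of one line and sex, most members varied more than the median tested gene. The comparison was with all tested genes, not with genes of like level. Members lie lower, with a median of 0.997 FPKM against 7.10 over tested genes. The biological coefficient of variation, the spread edgeR estimates beyond counting error, had a median of 14.1% over the 28 tested members, from 5.5% (Stat2) to 26.9% (Rsad2), against 6.66% over all 15723 tested genes. Rsad2 varied more than 96.2% of genes, Mx1 (23.4%) more than 93.9% and Usp18 (22.8%) more than 93.5%. Ifit2 (6.2%), Cmpk2 (5.68%) and Stat2 varied less than the median gene. For the scarcest members counting error was as large: at the median of 8.5 reads, Mx1 has a counting error of 34.3%.

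Members were a little higher in females than in males. After line, 26 of 28 tested members had a fold change above 0, female over male, with a median log2 of 0.092. Over all tested genes 50.2% lay above 0, with a median of 0.00016. By edgeR's quasi-likelihood test, adjusted by Benjamini-Hochberg over all genes, 3 of 28 members passed 0.05, all higher in females, while 8.57% of all genes passed in either direction and 4.07% passed as higher in females. A further 10 members had an unadjusted p below 0.05, which makes 13 of 28 (46.4%), against 22.6% of all genes. Members varied together from mouse to mouse, as given below, so a few mice can move many of them at once. These counts of members are therefore not counts of separate observations. Without the 3 libraries that went against their sex label the count was 5, with Ifi44 and Trim30a added. With single lines left out it ran from 2 to 7, with 7 without Ece2 and 7 without Rgs9, 6 without Morf4l1, 5 without Arpp19 and 2 without Gsg1l, without Tbc1d8 or without Zswim6.

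Oas2, which makes the small messenger that activates RNase L, had the largest of these differences. It ran from 0.247 CPM through a median of 0.580 to 1.18 in females, against 0.221 through 0.492 to 0.926 in males. The sexes overlapped widely, and the female mean was higher in 12 of 13 lines. The log2 fold change, female over male, was 0.33 ± 0.09 (SE; adjusted p = 0.00869, edgeR).

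Ifit1, which binds foreign RNA ends, ran from 1.77 CPM through 2.74 to 4.48 in females, against 1.61 through 2.43 to 4.92 in males. The highest library was a male, Arpp19 male replicate 1, although females were higher in 12 of 13 lines. Its log2 fold change was 0.19 ± 0.05 (SE; adjusted p = 0.0150, edgeR). Trim25 ran from 5.63 CPM through 7.22 to 9.25 in females, against 5.33 through 6.66 to 8.83 in males, and females were higher in 10 of 13 lines. Its log2 fold change was 0.11 ± 0.03 (SE; adjusted p = 0.0136, edgeR). Ifit1 and Trim25 are the 2 whose call is lost with single lines left out: Ifit1 without Tbc1d8 (adjusted p = 0.0643) and Trim25 without Gsg1l or Zswim6 (0.0545 and 0.0578).

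Ifi44 and Oas1a had fold changes nearly as large as that of Oas2, 0.29 ± 0.10 and 0.30 ± 0.11 on the log2 scale, with adjusted p of 0.0577 and 0.0625 by edgeR. Both are scarce, with medians of 13 and 12 reads. Stat2 and Cmpk2 were the 2 members below 0, at -0.02 ± 0.02 and -0.004 ± 0.02.

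**Figure D2:**
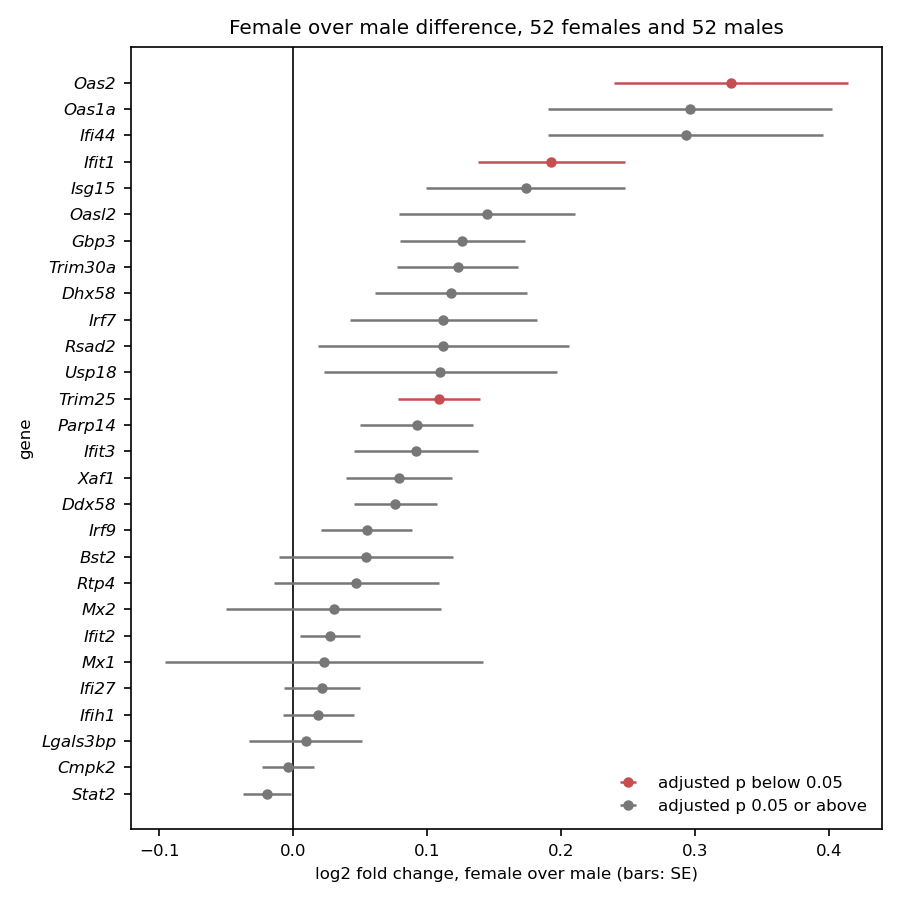
Log2 fold change, female over male, of the 28 tested members with SE bars, 52 females and 52 males; red points passed an adjusted p of 0.05. Points lie right of 0 in 26 of 28 members, and Oas2, Ifit1 and Trim25 are the 3 that passed.

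Genes around the members were read from lists in the same fit. Of 16 tested interferon gamma targets, 3 were higher in females: the GTPases Gbp5 (log2 0.20 ± 0.06) and Irgm2 (0.17 ± 0.05), and Nlrc5 (0.21 ± 0.07), the activator of MHC class I genes. All 16 had fold changes above 0, with a median of 0.11. Among 33 other type I interferon targets, Ifi203 (0.40 ± 0.07), Samd9l (0.12 ± 0.04) and Sp100 (0.14 ± 0.05) were higher in females, and Ube2l6 (-0.11 ± 0.03), the enzyme that conjugates Isg15, was lower. Of 5 tested receptor genes Ifngr2 was higher in females (0.06 ± 0.02). None of 11 upstream sensors and adaptors or 8 feedback inhibitors was called.

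Some cell type markers also differed by sex. None of 10 microglia markers passed, their sum running from 308.5 to 394.1 CPM in females and from 315.1 to 415.7 CPM in males. None of 6 border macrophage markers passed, though all 6 had fold changes above 0, with a median log2 of 0.18 and 3 at an unadjusted p below 0.05. All 7 oligodendrocyte markers lay above 0 (median 0.06) and 0 of 7 neuron markers did (median -0.03). Of other lists, S100b of 7 astrocyte markers, Abcb1a of 10 endothelial markers, Itgal of 3 tested blood leukocyte markers, and Mog and Cldn11 of 7 oligodendrocyte markers were higher in females, while Slc17a7 and Rbfox3 of 7 neuron markers were lower. Ttr, a choroid plexus gene, was lower in females (-1.97 ± 0.51), but was also called between lines and in the interaction of line and sex. The choroid plexus and ependymal markers summed to near equal medians, 6.909 CPM in females and 6.925 CPM in males. Their highest sum was 316.7 CPM in males, against 9.049 CPM in females. The part of these marker differences in the members' difference was not tested. In bulk tissue, fewer cells of a type and less RNA per cell cannot be told apart.

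The 13 lines differed in 1 of 28 members, Ifih1, by an F-test over lines (F = 3.78, adjusted p = 0.00282, edgeR), while 9.61% of all genes passed. Leaving out Gsg1l or Tbc1d8 ended that call (adjusted p = 0.0602 and 0.068). Trim30a and Irf9 stood next, at adjusted p of 0.0513 and 0.0574, and passed in several settings, DESeq2 among them, which called 4 members. Ifih1 was lower in Gsg1l, where the 8 libraries ran from 5.54 CPM through a median of 6.29 to 7.02. They averaged 6.35 ± 0.567 CPM (SD, n = 8), against 7.29 ± 0.748 CPM in the other 12 lines (SD, n = 96), with a log2 fold change of -0.19 ± 0.05 (SE; adjusted p = 0.00614, edgeR). It was also lower in Tbc1d8, from 6.01 CPM through 6.43 to 7.02, averaging 6.45 ± 0.410 CPM (SD, n = 8) against 7.28 ± 0.765 CPM in the others (SD, n = 96). The fold change was -0.17 ± 0.05 (SE; adjusted p = 0.0144, edgeR). All 16 of these libraries lay below the Kdm3b range of 7.28 to 8.56 CPM, the line with the highest median, and overlapped the ranges of the other 10 lines. Ifit2 was lower in Gsg1l, at 11.1 CPM through 13.04 to 15.4, averaging 13.1 ± 1.28 CPM (SD, n = 8) against 14.2 ± 1.18 CPM in the others (SD, n = 96). Its fold change was -0.12 ± 0.04 (SE; adjusted p = 0.0479, edgeR), a call that 8 of 25 other settings lost.

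Those calls came in the 2 lines in which many genes differ: 10.4% of all genes passed in Gsg1l and 12.4% in Tbc1d8. In the other 11 lines no member was called, against 0.00636% of genes in Arpp19, 0.165% in Dach1, 0.0127% in Ece2, 0.0318% in Morf4l1, 0.0127% in Pcdh20, 0.108% in Rasgef1a, 0.0445% in Rgs9 and 0% in Hrk, Kdm3b, Ppp1ca and Zswim6. In the interaction of line and sex, 1 of 28 members had an unadjusted p below 0.05, which is 3.57%, against 3.797% of all genes. With 4 libraries per line and sex, small differences can be missed, and no member was called (0 of 28, against 0.0382% of all genes). Nor was any member called between the 8 libraries of plate 2 and the 96 of plate 1 (0 of 28 called, against 0.242% of all genes; 2 at an unadjusted p below 0.05, which is 7.14%, against 12.5% of all genes). On plate 2, 5 of 28 members had fold changes above 0, with a median log2 of -0.10. In single lines, 24 of 28 lay above 0 in Hrk (median 0.11), 23 in Arpp19 (0.11) and 5 in Ppp1ca (-0.06).

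Line medians of the most abundant members lay close together. They ran from 16.01 CPM in Ppp1ca to 17.4 in Morf4l1 for Ifi27, from 33.1 in Pcdh20 to 36.1 in Gsg1l for Stat2, from 23.3 in Rgs9 to 25.6 in Gsg1l for Cmpk2, from 12.3 in Dach1 to 13.9 in Tbc1d8 for Lgals3bp and from 10.2 in Morf4l1 to 13.2 in Arpp19 for Irf9. Ifit1 ran from 2.19 CPM in Kdm3b to 2.86 in Morf4l1, Trim25 from 6.59 in Ppp1ca to 7.14 in Morf4l1, and Oas2 from 0.396 in Morf4l1 to 0.739 in Rasgef1a. The ratios of highest to lowest line median were 1.31 for Ifit1, 1.08 for Trim25 and 1.87 for Oas2. The 5 members with the largest SD of log2 CPM within line and sex were also taken. That SD includes counting error, so its order differs from that of the biological coefficient of variation. Their ratios were 1.99 for Ifi44 (0.305 CPM in Ppp1ca, 0.607 in Hrk) and 1.66 for Oas1a (0.312 in Tbc1d8, 0.517 in Rasgef1a). Isg15 had 1.57 (0.762 in Kdm3b, 1.19 in Arpp19), Mx1 1.45 (0.244 in Rasgef1a, 0.352 in Ppp1ca) and Usp18 1.30 (0.657 in Gsg1l, 0.857 in Hrk). None of these 5 passed the line test.

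Members varied together from mouse to mouse. The log2 CPM of each library was taken as its deviation from the mean of its line and sex, which removes sex and line. Over the 378 pairs of tested members the median Pearson correlation across all libraries was 0.197, and 87.6% of pairs were above 0. Over all 123598503 pairs of tested genes the median was -0.001, with 49.9% above 0. These are descriptions: libraries share depth and preparation, and no p is attached.

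The 6 pairs with r above 0.5 made up 1.59% of member pairs, against 0.774% of all pairs of tested genes. They fell into 3 separate sets of genes, 1 of them around Oasl2. Irf7 and Oasl2 correlated at r = 0.578 (Spearman's rho 0.553), and at r = 0.577 without the 2 libraries farthest out in Oasl2. Ifit1 and Oasl2 correlated at 0.565 (rho 0.575) and Ifit3 and Oasl2 at 0.507 (rho 0.475). Ifi27 and Lgals3bp, the abundant pair, correlated at 0.544 (rho 0.407). Usp18 and Mx1 correlated at 0.53 (rho 0.425), and at r = 0.403 without the 2 libraries farthest out in Usp18. Isg15 and Usp18, the modifier and the protease that removes it, gave r = 0.548 but rho = 0.28, and r = 0.273 without the 2 libraries farthest out in Isg15, so that value rests on those libraries. Among the looser pairs, Irf7 and Ifit1 correlated at 0.459 (rho 0.444), and at 0.419 without the 2 libraries farthest out.

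Ifit1 had the highest median correlation with the other members (0.355), followed by Gbp3 (0.312), Lgals3bp (0.302) and Rsad2 (0.28). At the other end were Cmpk2 (0.0209), Mx2 (0.0486), Oas1a (0.0812) and Irf9 (0.0962). Cmpk2 and Irf9 were inversely related (r = -0.455, rho = -0.407). Neighbours on the genome varied in how they correlated. On chromosome 19 Ifit1 and Ifit3 correlated at 0.49, Ifit2 and Ifit3 at 0.237 and Ifit1 and Ifit2 at 0.205. Oas1a and Oas2 gave 0.409 (rho 0.412), the highest r of Oas1a with any member, while Rsad2 and Cmpk2 gave 0.0559 and Mx1 and Mx2 gave 0.0476.

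**Figure D3:**
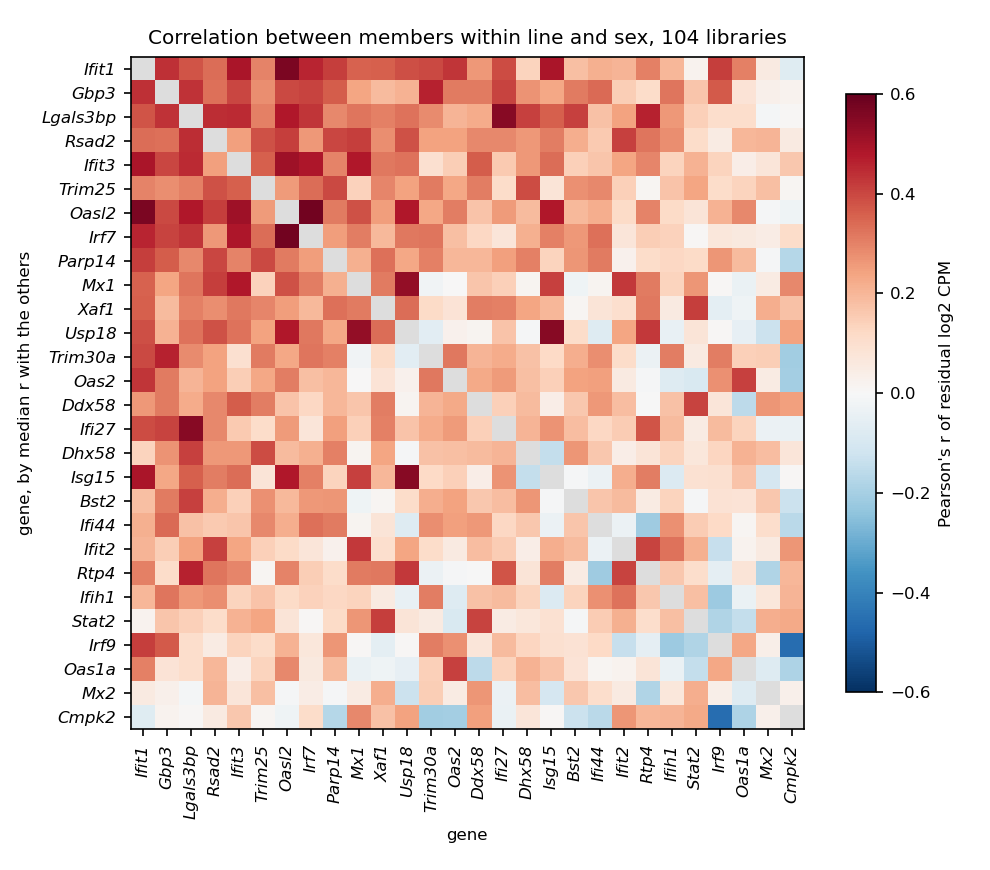
Pearson's r between 28 members across all libraries after removal of line and sex means, genes ordered by their median r. Red squares (r above 0) fill the upper left around Ifit1, Gbp3, Lgals3bp, Ifit3, Oasl2 and Irf7, and Cmpk2 with Irf9 is the darkest blue square, at -0.455.

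Irf7, the amplifier of the list, was used as an index of the pathway in a fit with line, sex and their interaction, which asks which genes follow it between mice of one line and sex. Of 15722 other genes 4 were called by edgeR's test. The 3 that rose with Irf7 (0.0191% of the genes tested) were the members Oasl2, Ifit3 and Ifit1. The fourth was Abca1, a cholesterol exporter, which fell with Irf7 (-0.19 ± 0.04 log2 per log2 of Irf7, adjusted p = 0.0208). The 27 tested members other than Irf7 all had slopes above 0, with a median of 0.20, against 50.7% above 0 and a median of 0.00055 over all genes. An unadjusted p below 0.05 was found in 15 of these 27 members (55.6%), against 7.58% of all genes. Irf7 is itself a member, so the fit repeats correlations between members given above, from the same libraries. It is no separate support for them. Irf7 had a median of 48.5 reads, and its own counting error was not modelled.

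Oasl2, a relative of the oligoadenylate synthetases, had the steepest slope, at 0.57 ± 0.09 (SE; adjusted p = 0.000218, edgeR). It stayed called in all 8 other settings run. Ifit3 had 0.34 ± 0.07 (adjusted p = 0.0208, edgeR) and lost its call in 3 of 7 other settings, with adjusted p of 0.281 without the 3 libraries that went against their sex label, 0.0547 without Zswim6 female replicate 52 and 0.0540 without Arpp19 male replicate 1. Ifit1 had 0.39 ± 0.08 (adjusted p = 0.0446, edgeR) and lost its call in 6 of 8, with adjusted p up to 0.207.

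Mx1 (0.55 ± 0.19), Ifi44 (0.56 ± 0.17), Usp18 (0.49 ± 0.14), Isg15 (0.41 ± 0.12) and Rsad2 (0.40 ± 0.15) had slopes as large but wider errors, and did not pass, with adjusted p between 0.273 and 0.512 by edgeR. The shallowest slopes were those of Stat2 (0.002 ± 0.03) and Ifit2 (0.02 ± 0.04). Stat2 and Ifit2 are both abundant members with a small spread between mice.

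In that fit none of 16 tested interferon gamma targets was called, although all 16 had slopes above 0, with a median of 0.24, and 13 (81.2%) had an unadjusted p below 0.05, a larger share than among the members. None of 33 other type I targets was called, and 27 of them lay above 0, with a median of 0.14 and 15 (45.5%) at an unadjusted p below 0.05. None of 10 microglia, 7 astrocyte, 10 endothelial or 6 border macrophage markers was called, with median slopes of 0.0063, 0.032, 0.040 and 0.11.

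**Figure D4:**
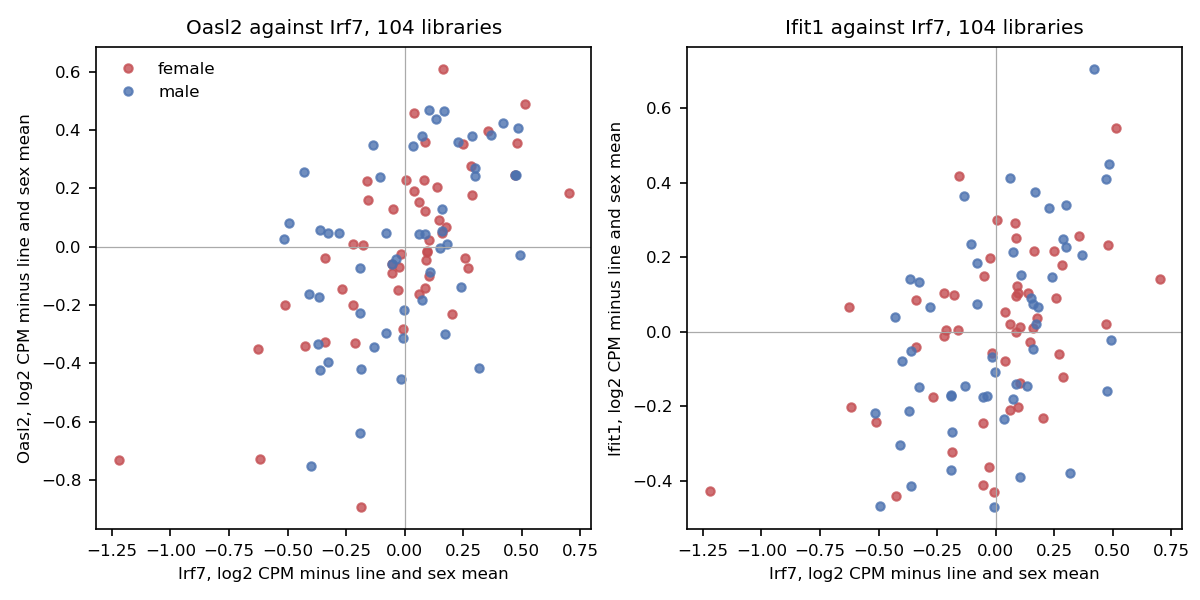
Deviation from the line and sex mean, in log2 CPM, of Oasl2 (left) and of Ifit1 (right) against Irf7, one point per library, 52 females and 52 males. Both clouds slope upward, with r = 0.578 for Oasl2 and r = 0.459 for Ifit1.

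Outside the list, the 10 tested genes whose deviations followed the mean of the members most closely across all libraries included Gbp7 (r = 0.616), the complement gene C4b (0.59), Ak3, Trim34a, the glutamine transporter Slc38a3, Gbp2, Irgm2, Clic4 and Lgals9 (0.565). Of 15695 non-members 45 (0.287%) reached 0.5.

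Single libraries stood out when the 28 members were averaged. The mean log2 CPM ran from 1.22 through 1.59 to 2.16 in females and from 1.31 through 1.52 to 1.96 in males. The libraries named here were picked by the mean of these members, so counts of high members follow in part from that choice. Zswim6 female replicate 52 was highest at 2.16, with 28 of 28 members above their median over all libraries. For 18 members it was among the 5 highest libraries, a place that 7.46% of all genes took in it. It was not picked by all genes, so that share is no like baseline. The other 3 Zswim6 females lay at 1.66 and below. Rasgef1a female replicate 37 (2.00, 28 of 28 above the median), Hrk female replicate 19 (1.99), Arpp19 male replicate 1 (1.96) and Ece2 male replicate 12 (1.95) followed.

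**Figure D5:**
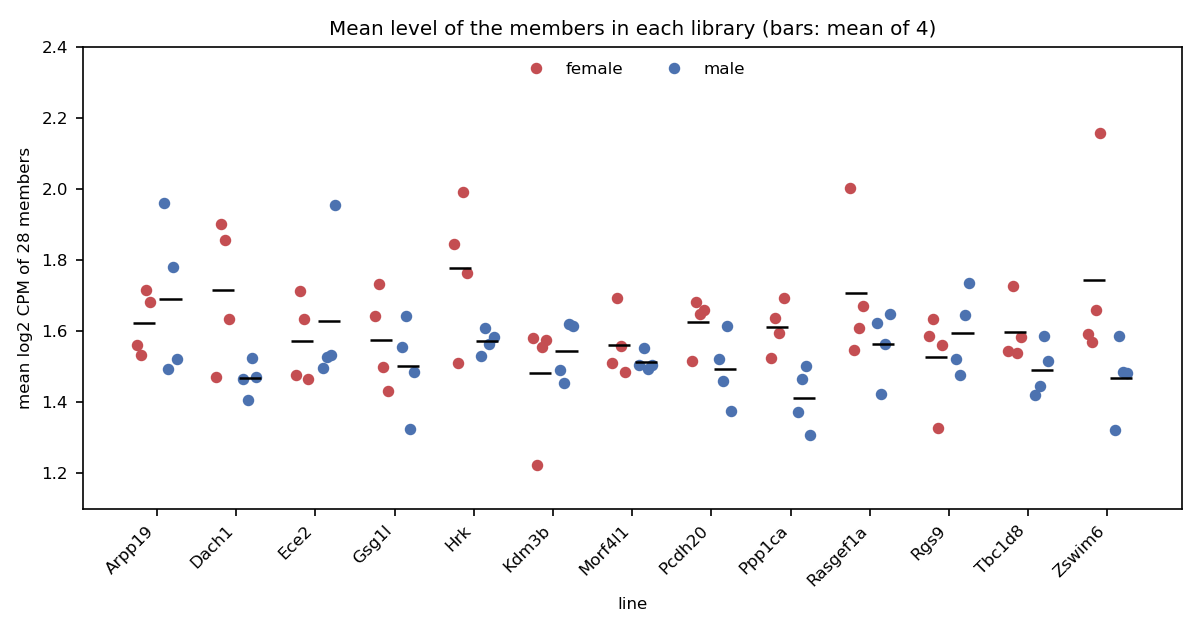
Mean log2 CPM of the 28 tested members in each library, by line, females in red left of males in blue, with bars at the mean of 4. Zswim6 female replicate 52 is highest at 2.16 and Kdm3b female replicate 22, with the fewest reads, lowest at 1.22.

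A member was called high in a library at 1 log2 unit or more above its median over all libraries, which happened 11 times in 5 libraries (0.378% of member values, against 0.228% of the values of all genes). Mx1 reached 31 reads in Arpp19 male replicate 1, against a median of 8.5, and Usp18 (51 reads, median 21) and Rsad2 (84, median 32) were high there too, in a library where 0.184% of all genes were high. Zswim6 female replicate 52 was high in Rsad2 (66 reads), Usp18 (41) and Ifi44 (27), and 0.483% of all genes were high in it. Ece2 male replicate 12 had 87 reads of Rsad2 and 26 of Oas1a, and 0.706% of all genes were high in it. Dach1 female replicate 6 was high in Bst2 (99 reads, median 47) and Oas2 (33, median 16), and 0.184% of all genes were high in it. The eleventh value, Ifi44 in Kdm3b female replicate 22, rests on 4 reads in the shallowest library, in which 2.16% of all genes were high.

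The rest of the pathway and the cell markers differed between these libraries. Interferon ligand genes had 0 reads in Zswim6 female replicate 52, Arpp19 male replicate 1, Ece2 male replicate 12, Dach1 female replicate 6 and Hrk female replicate 19. Interferon gamma targets summed to 74.2 CPM in Zswim6 female replicate 52 and 73.8 CPM in Ece2 male replicate 12, places 2 and 3 among all libraries, against a median of 58.2 CPM. The other type I interferon targets had a median of 330.2 CPM. They summed to 350.1 CPM in Zswim6 female replicate 52 (place 1) and 348.5 in Dach1 female replicate 6 (place 4). Hrk female replicate 19 was place 13 and Ece2 male replicate 12 place 16. Rasgef1a female replicate 37 (333.3 CPM) and Arpp19 male replicate 1 (333.1 CPM) were places 34 and 36. In Zswim6 female replicate 52 the microglia markers (349.5 CPM, median 354.6) and blood leukocyte markers (5.19 CPM, median 5.82) were below their medians, and the astrocyte markers (2061 CPM, median 1923) were place 14. Ece2 male replicate 12 held the highest astrocyte sum (2460 CPM), the second highest leukocyte sum (7.34 CPM) and place 7 for microglia (388 CPM), with an endothelial sum of 292.3 CPM, place 5 (median 263.4). Rasgef1a female replicate 37 was place 3 for astrocyte (2205 CPM), place 5 for microglia (392.1 CPM) and place 7 for endothelial markers (288.5 CPM). Hrk female replicate 19 held the highest endothelial sum (300.5 CPM), place 3 for border macrophages (13.5 CPM) and place 9 for astrocytes (2094 CPM). The endothelial sum of Zswim6 female replicate 52 was 262.1 CPM, place 55, and that of Arpp19 male replicate 1 was 235.8 CPM, place 102. Arpp19 male replicate 1 held the lowest astrocyte sum (1779 CPM) and place 72 for microglia (343 CPM). Their part in the members' values was not tested.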

How the data were processed

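Cortical RNA was made into stranded mRNA libraries, per the labels' protocols. Reads were handled with STAR 2.7.3a and HTSeq 0.10.0 against GRCm38 or mm10, per the submitters' processing notes; whether HTSeq used strand is not given in the sources used here. The authors deposited raw read counts and FPKM for RefSeq and for Ensembl genes; the parameters behind the deposited FPKM values are not given in the sources used here. The RefSeq counts were used for tests and the RefSeq FPKM for levels, the Ensembl counts (19563 genes used, 29 members) as an alternative and the Ensembl FPKM for Ifit3b.

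Genes were filtered by edgeR's filterByExpr over line and sex, which kept 15723 genes and 28 members, and scaled by TMM. Sex, line, interaction, plate and the Irf7 covariate were tested by edgeR 4.0.16's quasi-likelihood test in R 4.3.3, with Benjamini-Hochberg adjustment over all tested genes and a threshold of 0.05. Log2 CPM used a prior count of 2. Members with a sex, line, interaction or plate call, the 5 most abundant and the 5 with the largest residual spread are given by line. The members, lists and tests were chosen with earlier results of these data known. Scripts were tested on simulated data. A fit with another covariate, which the Irf7 fit was planned as an alternative to, is not reported here. Depth ranged from 3389134 to 33489259 reads. Correlations and promoter matches are descriptions. Intervals and SE cover the spread between these libraries. Alternatives covered scaling, filters, annotation, DESeq2 1.42.0, plates, left-out libraries and lines and a replicate block.

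The replicate numbers shared by a female and a male library were not used as pairs in the main fits. The correlation of their deviations ran from -0.244 to 0.241 over 52 pairs, with a median of 0.0172 and 8 pairs over 0.1. Among the 4 males of the line, the male of the same number was the best match for 18 of 52 females. Whether the numbers mark pairs was not tested.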

Additional observations from a re-analysis of the deposited data

Results flagged for a closer look

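Within each line of 8 libraries, 16 members with a median of 50 reads or more, and the mean of the 28 tested members, were checked for a library far from the other 7 (by Dixon's limit on its gap to the nearest, as a share of the line's range). This held for 21 of 221 checks (9.5%). The limit is set for about 1 in 20 independent checks of normally distributed values. These checks are not independent, since members vary together and their mean was checked in the same libraries. No excess over that share can be read from them. All values are log2 CPM, with the range of the other 7 libraries after them.

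For the mean of the members, Zswim6 female replicate 52 (2.16, against 1.32 to 1.66), Rasgef1a female replicate 37 (2.00, against 1.42 to 1.67) and Morf4l1 female replicate 26 (1.69, against 1.49 to 1.56) stood high. Kdm3b female replicate 22 stood low (1.22, against 1.46 to 1.62) at 3389134 reads.

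Lgals3bp was the member with the most such libraries. It stood high in Arpp19 male replicate 3 (4.56, against 3.57 to 3.92), Zswim6 female replicate 52 (4.44, against 3.52 to 3.75), Ece2 male replicate 12 (4.39, against 3.53 to 3.90) and Dach1 female replicate 6 (4.29, against 3.50 to 3.77), and low in Kdm3b female replicate 22 (3.34, against 3.63 to 3.87).

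Arpp19 male replicate 1 stood high in Ifit1 (2.32, against 1.15 to 1.60) and Ifit3 (3.31, against 2.42 to 2.84). Trim30a stood high in Zswim6 female replicate 52 (1.98, against 1.05 to 1.40) and low in Arpp19 male replicate 4 (0.57, against 1.11 to 1.33). Other high values were Irf9 in Tbc1d8 female replicate 45 (3.73, against 3.28 to 3.47), Trim25 in Hrk female replicate 20 (3.22, against 2.68 to 2.93) and Parp14 in Ppp1ca female replicate 36 (2.41, against 1.66 to 2.01). Low values were Ifi27 in Kdm3b male replicate 22 (3.90, against 4.05 to 4.17) and Tbc1d8 male replicate 47 (3.86, against 4.06 to 4.13), Ddx58 in Pcdh20 male replicate 32 (1.96, against 2.29 to 2.50), Ifit2 in Rgs9 female replicate 44 (3.59, against 3.80 to 3.97) and Oasl2 in Rgs9 female replicate 43 (0.38, against 1.07 to 1.59), a library that went against its sex label.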

How the results depend on the processing

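The fold changes and slopes of members called in the main fit, and the median pairwise correlation, kept their direction in every setting run for them. The direction of other named values was not followed across settings. Counts of called members moved by more than 1.5 times in these cases. By sex the count was 3 and became 5 without the 3 libraries that went against their label, and 2 to 7 with each line left out. Between lines it was 1 and became 2 under the stricter filter, 2 with Ensembl counts, 3 without Kdm3b female replicate 22, 4 with DESeq2, 0 to 3 with each line left out (0 without Tbc1d8), and 1 to 3 with each Gsg1l or Tbc1d8 library left out (added after seeing the data). In single lines against the other 12 it was 3 and became 1 on plate 1 alone, where Ifih1 in Tbc1d8 had an adjusted p of 0.052 by edgeR. With Irf7 as covariate it was 3 and became 1 without the 3 libraries that went against their label, 1 without Zswim6 female replicate 52 and 1 without Arpp19 male replicate 1, settings chosen for this fit after seeing the data; Irf7 lies below the stricter filter, which gave no value. High values numbered 1 in place of 11 at 1.5 log2 above the median. The cause was not tested. The median pairwise correlation stayed between 0.169 and 0.229 in 9 settings. The replicate block, in place of line, called 3 members by sex and 1359 of all genes. Of 52 females, 18 were best matched by the male of their number, out of the 4 males of their line. Depth limits the scarcest members: Mx1, Oas1a, Ifi44, Oas2, Usp18 and Mx2 had medians of 8.5 to 22 reads.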

Other observations

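Library descriptions hold a middle number whose meaning the labels do not state. Among libraries of one line and sex, the mean log2 CPM of the 28 members differed by a median of 0.0594 in the 18 pairs that share it, against 0.124 in the 138 pairs that do not. The members' deviations also correlated at a median of -0.128 between the libraries of pairs that share it, against -0.385 in the others. Deviations from the mean of the same 4 libraries cancel out for each gene. Negative correlations within a line and sex are thus built in, and their sign has no meaning. The fits treat all libraries as independent. Pairs share libraries, the difference was noticed in these data, and no test was made.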
